A study of Mus musculus with 9 samples.

Results

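The insulin-like growth factor (IGF) axis was followed through 10 genes in mouse hindlimb muscle: the ligands Igf1 and Igf2, the receptors Igf1r and Igf2r, the binding proteins Igfbp3, Igfbp4, Igfbp5, Igfbp6 and Igfbp7, and the receptor substrate Irs1. The genes were chosen by name from the 14300 protein-coding genes listed in both deposited tables, and all 10 were found there. RNA was sequenced from tibialis anterior, a fast muscle of the lower leg, of C57BL/6J males, with 3 libraries in each of 3 groups. The first group is labelled control, ORX mice had been orchiectomised (testes removed), and ORX+DHT mice were orchiectomised and given dihydrotestosterone, a potent androgen. Sampling was at 4 weeks after treatment. No genetic change is named for any group, and the mice's age, the androgen's dose and route and the surgery of the control mice are not given in the sources used here. Control columns carry the name sham in the tables. The labels call the replicates biological but do not say that each is a separate mouse. The p-values therefore rest on the spread between these samples, which limma shrinks towards that of genes at a similar level.

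IGF1 is made in liver, largely under growth hormone, and also locally in muscle, where it promotes growth of the fibres. IGF1 and IGF2 act through the IGF1 receptor, a tyrosine kinase that phosphorylates IRS1 and so turns on PI3 kinase, AKT and mTOR, while the IGF2 receptor mainly takes up and degrades IGF2. Most IGF outside cells is held by binding proteins, which can withhold it from the receptor or keep it near the cell. Androgens are known to promote muscle growth, and whether local IGF signalling takes part is a long-standing question in the field.

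Igfbp5 was the 1 member called as different between ORX+DHT and ORX muscle, though some alternative fits lost the call. It was the most abundant member per length of transcript, and its level in ORX+DHT muscle was 1.93-fold lower than in ORX muscle. The other 8 members that could be tested were called in none of the 3 comparisons when each was fitted with all of its libraries. To show what lies before the start of Igfbp5 and of a pair of related genes that were not called, the bases upstream of their first annotated start are given 5′ to 3′ on the gene's strand, from RefSeq's promoter table on GRCm38.p6. Capitals mark a TATA motif (TATANA) or, in Igfbp5, the TATA-like letters TATTTAA, and each stretch stops before the first annotated transcribed base of its gene.
Igfbp5: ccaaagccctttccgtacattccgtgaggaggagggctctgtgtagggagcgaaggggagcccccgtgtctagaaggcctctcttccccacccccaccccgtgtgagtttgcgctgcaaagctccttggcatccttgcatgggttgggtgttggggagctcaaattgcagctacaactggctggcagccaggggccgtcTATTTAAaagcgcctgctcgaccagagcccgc
Igfbp3: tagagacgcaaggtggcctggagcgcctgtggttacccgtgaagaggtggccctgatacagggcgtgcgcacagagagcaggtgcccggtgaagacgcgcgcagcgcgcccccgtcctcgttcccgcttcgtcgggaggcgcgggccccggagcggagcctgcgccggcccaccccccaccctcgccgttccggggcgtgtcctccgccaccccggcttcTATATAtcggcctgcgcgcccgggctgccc
Igfbp4: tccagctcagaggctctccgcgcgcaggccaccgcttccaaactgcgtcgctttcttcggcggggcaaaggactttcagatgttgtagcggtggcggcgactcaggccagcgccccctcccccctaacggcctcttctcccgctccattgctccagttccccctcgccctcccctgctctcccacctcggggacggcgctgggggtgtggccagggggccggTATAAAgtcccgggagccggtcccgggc

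The stretches lie at chr1:72874885-72875115 (minus strand, 231 bases), chr11:7213924-7214173 (minus strand, 250 bases) and chr11:99040994-99041243 (plus strand, 250 bases). Their GC content was 60.6%, 73.2% and 69.2%. The capitals begin 32, 30 and 28 bases before the end of each stretch. In RefSeq windows of 300 bases (250 before to 50 after a start), which matched all 10 members with 13 windows, motifs were searched on both strands. The full androgen response element, the arms AGAACA and TGTTCT set 3 bases apart, was in 0 of the 13 windows and in 0.00913% of all 32851. The arm TGTTCT alone was in 1 member window, of Igf2, and in 19.0% of all. A forkhead motif, TGTTTAC, was in 0 of 13 and in 3.65% of all. The E-box CANNTG was in 9 of 13, Igfbp5 included, and in 72.3% of all. The AP-2 motif GCCNNNGGC was in 2 of 13, Igfbp5 and Igf2, and in 16.6% of all. TATTTAA was in Igfbp5 alone among the members and in 4.51% of all windows, and TATANA was in 3 member windows (Igfbp3, Igfbp4 and Igfbp6) and in 24.7% of all. TATTTAA was chosen after the sequences were read. These are matches of letters within these windows, and no binding was measured.

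Values are normalised counts: each library's reads were divided by a scaling factor, here computed jointly over the 9 libraries. Recovered depth was 1340209 to 1682235 reads a library over the listed genes, and the limit that a count of 0 allows covers counting error only. Control 1 stood apart, with a score of -47.2 on the first principal component against 0.716 to 10.6 in the other 8 libraries. The summed level of 8 fast-fibre markers (Myh4, Myh1, Acta1, Ckm and others) was 223235 to 328319 normalised counts, and none of them was at 0 in a library. All 6 satellite-cell markers summed to 48.4 to 76.2. Since muscle was sequenced whole, fewer cells of a type and less RNA per cell cannot be told apart in any result here.

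The levels of the members spanned a wide range. Per kilobase of annotated exon (GENCODE M21), the mean over 9 libraries was 212 normalised counts for Igfbp5, 109 for Igfbp7 and 38.7 for Igfbp6. Igf2r followed with 17.0, then Igfbp4 with 11.9, Igfbp3 with 10.5 and Irs1 with 9.65. Igf1 stood at 4.24, Igf1r at 2.34 and Igf2 at 0.218 per kilobase. Igfbp5 exceeded Igfbp7 in 8 of 9 libraries, the exception being control 1. Igf2r exceeded Igfbp4 in 8 libraries, Igfbp4 exceeded Igfbp3 in 7, and Igfbp3 exceeded Irs1 in 8. Irs1 exceeded Igf1 in 8 libraries, again with control 1 as the exception. The other neighbours in this order kept it in all 9 libraries.

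**Figure D1:**
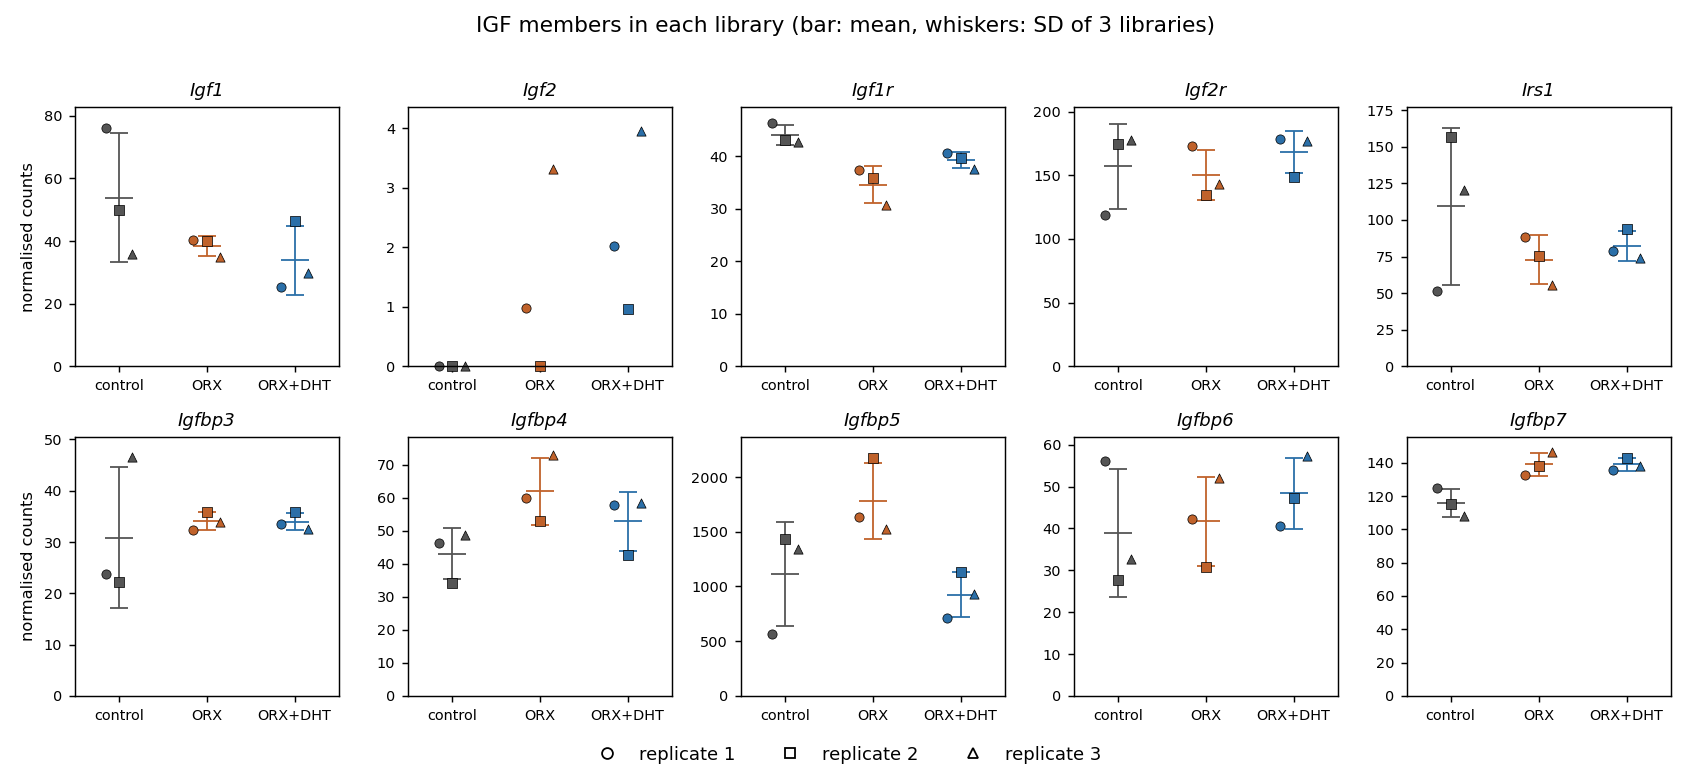
Normalised counts (y axis, linear from 0) of the 10 members in each library, by group; marker shape gives the replicate, the bar is the mean and the whiskers are the SD of 3 libraries (points alone for Igf2). Igfbp5 lies at 1525 to 2177 in ORX libraries and at 713 to 1129 in ORX+DHT, and control 1 is the lowest library for Igfbp5, Igf2r and Irs1.

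Among the ligands, Igf1 (ENSMUSG00000020053, chr10:87858265-87937042, GRCm38) was low. Controls 1, 2 and 3 had 76.2, 49.8 and 35.8 normalised counts, and it stood at 40.2, 40.1 and 34.7 in ORX and at 25.3, 46.4 and 29.6 in ORX+DHT muscle. The groups overlapped, and the highest value was that of control 1. Its log2 difference, the log2 of the fold change, was -0.42 in ORX against control (95% interval -0.99 to 0.15, adjusted p by limma 0.750) and -0.64 in ORX+DHT against control (-1.30 to 0.02, adjusted p by limma 0.736). Without control 1 these were -0.14 and -0.36. Between ORX+DHT and ORX the interval was -0.68 to 0.23, which holds falls of up to 37.4%. Igf1 had 25 to 61 reads a library. Igf2 (ENSMUSG00000048583, chr7:142650766-142666816), the fetal growth factor expressed from the paternal allele, had 0 reads in each control library. A count of 0 allows up to 3 reads of the 1340209, 1368655 and 1502088 in controls 1, 2 and 3. ORX libraries had 1, 0 and 4 reads and ORX+DHT libraries 2, 1 and 4. At these counts a difference was not detectable, and Igf2 stayed below the minimum mean of 10 for testing. An overlapping gene model, Gm49394, covers 62.8% of its exonic bases on the same strand, so the reads of Igf2 are uncertain.

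Neither receptor was called in any comparison. Igf1r (ENSMUSG00000005533, chr7:67952827-68233668) stood at 46.2, 43.1 and 42.7 in control, at 37.3, 35.8 and 30.6 in ORX and at 40.5, 39.6 and 37.5 in ORX+DHT libraries. The 3 groups did not overlap, with ORX lowest and control highest, but the gaps were small and no comparison passed. Its log2 difference was -0.34 in ORX against control (SE 0.19, adjusted p by limma 0.724) and 0.18 in ORX+DHT against ORX (SE 0.18, adjusted p by limma 0.714). Igf2r (ENSMUSG00000023830, chr17:12682406-12769664) stood at 119, 175 and 178 in control, at 173, 135 and 143 in ORX and at 178, 149 and 177 in ORX+DHT libraries. All groups overlapped, and control 1 was lowest. The log2 interval of its difference was -0.47 to 0.37 in ORX against control and -0.09 to 0.42 in ORX+DHT against ORX.

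Irs1 (ENSMUSG00000055980, chr1:82233101-82291416), which carries the signal from the receptor to PI3 kinase, depended on control 1. It stood at 51.2, 157 and 120 in controls 1, 2 and 3, at 88.3, 75.1 and 55.4 in ORX and at 79.0, 93.8 and 74.1 in ORX+DHT libraries. Control 1 lay below every other library, while controls 2 and 3 lay above all 6 libraries of orchiectomised mice. With all controls its log2 difference in ORX against control was -0.46 (SE 0.34, adjusted p by limma 0.788). Without control 1 it was -0.93, and Irs1 was called (adjusted p by limma 0.0403), as it was in ORX+DHT against control, with -0.74 (adjusted p by limma 0.0373), though there not when 8 libraries shared 1 fit (adjusted p by limma 0.111). Between ORX+DHT and ORX it was 0.19 (adjusted p by limma 0.679). A gene model on the other strand, Gm9747, covers 30.9% of its exonic bases; the libraries keep the strand, but whether counting used it is not given in the sources used here.

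Igfbp5 (ENSMUSG00000026185, chr1:72857932-72874884, minus strand) encodes a binding protein that also attaches to the extracellular matrix. Controls 1, 2 and 3 had 566, 1431 and 1343 normalised counts, and it stood at 1639, 2177 and 1525 in ORX and at 713, 1129 and 935 in ORX+DHT libraries. Every ORX library was above every ORX+DHT library, and also above every control, of which control 1 was far the lowest. Group means were 1113 ± 476, 1780 ± 348 and 926 ± 208 (SD, n = 3). Igfbp5 fell in ORX+DHT against ORX, with a log2 difference of -0.95 (SE 0.14, 95% interval -1.25 to -0.66, adjusted p by limma 0.000332). It was the 1 member called of 9 tested there, where 4.08% of all 8770 genes tested were called and 1.7% were called lower. Counts of reads ran from 453 to 2552 a library, so counting error was small beside the spread between replicates. That spread was wide for so abundant a gene. The pooled log2 SD of Igfbp5 within ORX and ORX+DHT was 0.30. The median was 0.097 over 359 genes with a mean of at least 500, of which 17 varied more than Igfbp5. The SE of 0.14 rests on a spread that limma had shrunk towards that of genes at a similar level.

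The call was made by edgeR (adjusted p 0.000249) and DESeq2 (adjusted p 0.00697) on the recovered reads and in each of the 6 fits without 1 library (log2 difference -1.11 to -0.78). It was lost under robust eBayes, which shrinks the spread of unusually variable genes less (SE 0.23, adjusted p by limma 0.153), and with all 9 libraries in 1 fit (SE 0.28, adjusted p by limma 0.171). With 8 libraries in 1 fit and control 1 left out, an alternative added after the values were seen, it was made again (adjusted p by limma 0.000242).

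**Figure D2:**
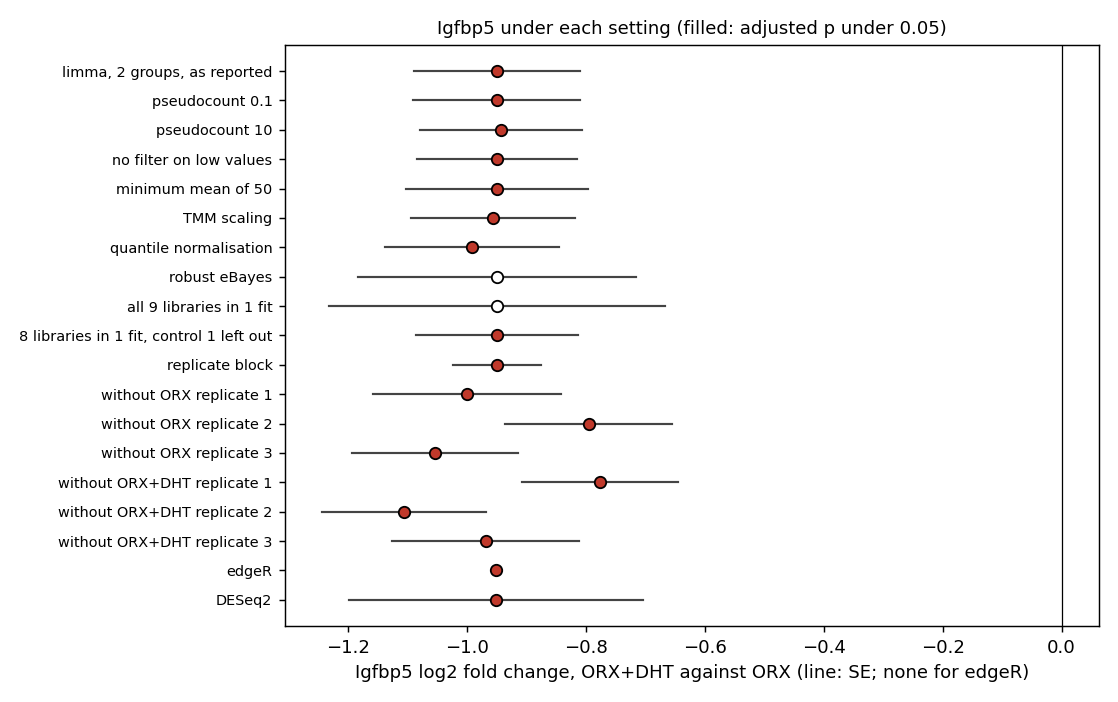
Igfbp5 log2 difference, ORX+DHT against ORX (x axis), under each processing setting (rows); lines are 1 SE on each side (none for edgeR) and filled points have an adjusted p under 0.05. All points lie between -1.11 and -0.78, and the open points are robust eBayes and the fit of all 9 libraries.

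In ORX against control the Igfbp5 difference was 0.77 on the log2 scale (SE 0.30, adjusted p by limma 0.675), and without control 1 it was 0.34. Between ORX+DHT and control it was -0.18 (SE 0.31, adjusted p by limma 0.897). Without control 1 it was -0.61 and was called (adjusted p by limma 0.0464), though not when 8 libraries shared 1 fit (adjusted p by limma 0.116). Without control 2 or 3 it was 0.06 or 0.02, so its sign rested on the control libraries.

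Of the other binding proteins, Igfbp4 (ENSMUSG00000017493, chr11:99041244-99054392) stood at 46.2, 34.3 and 48.7 in control, at 59.9, 52.9 and 72.8 in ORX and at 57.8, 42.5 and 58.3 in ORX+DHT libraries. ORX libraries lay above the controls with no overlap, at a log2 difference of 0.52 (SE 0.21) that did not pass (adjusted p by limma 0.675). Igfbp7 (ENSMUSG00000036256, chr5:77349240-77408041), which binds IGFs weakly and is common in vessel walls, stood at 125, 115 and 108 in control, at 133, 138 and 146 in ORX and at 136, 143 and 138 in ORX+DHT libraries. Both orchiectomised groups lay above the controls without overlap, by 0.26 on the log2 scale in each case (adjusted p by limma 0.742 and 0.736). Between ORX+DHT and ORX the interval of the Igfbp7 difference was -0.22 to 0.23. Exons of Polr2b on the other strand share 7.03% of its exonic bases.

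Igfbp3 (ENSMUSG00000020427, chr11:7206086-7213923), the main IGF carrier of blood, stood at 23.7, 22.1 and 46.7 in control, at 32.4, 35.8 and 33.9 in ORX and at 33.4, 35.8 and 32.6 in ORX+DHT libraries. Control 3 was the highest library, and ORX and ORX+DHT libraries nearly coincided, with a log2 interval of -0.38 to 0.37. Igfbp6 (ENSMUSG00000023046, chr15:102144362-102149511), which prefers IGF2, ranged from 27.6 to 56.2 in control, 30.7 to 52.1 in ORX libraries and 40.5 to 57.3 in ORX+DHT libraries. All groups overlapped for Igfbp6, and its intervals were wide: -0.50 to 0.76 in ORX against control and -0.20 to 0.65 in ORX+DHT against ORX.

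**Figure D3:**
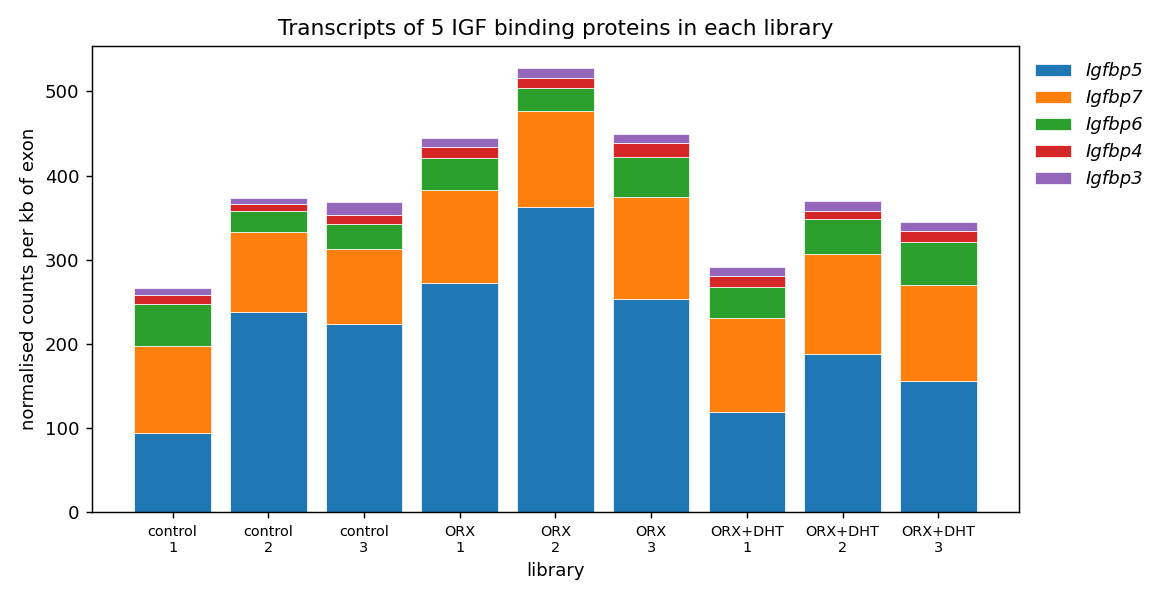
Normalised counts per kilobase of exon of the 5 binding proteins (stacked bars, y axis from 0) in each of the 9 libraries. Igfbp5 makes up 56.5% to 68.7% of the stack in ORX and 40.8% to 50.8% in ORX+DHT libraries.

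The make-up of the binding-protein transcripts followed Igfbp5. Per kilobase, Igfbp5 made up 61.4%, 68.7% and 56.5% of the 5 genes' summed level in ORX libraries and 40.8%, 50.8% and 45.1% in ORX+DHT libraries. In controls 1, 2 and 3 it was 35.4%, 63.9% and 60.7%. The summed level was 444, 528 and 449 normalised counts per kilobase in ORX and 291, 370 and 345 in ORX+DHT libraries, without overlap, and 266, 373 and 369 in control. Igfbp7 took 21.7% to 27.0% in ORX libraries and 32.0% to 38.6% in ORX+DHT libraries. These shares restate the fall of Igfbp5 and were not tested.

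Counted over the 9 members tested, ORX against control gave 0 calls by limma, against 0.0579% of 8631 genes, and 0 by edgeR and DESeq2. An unadjusted p under 0.05 was found for 2 members, Igfbp4 and Igfbp5, where 7.21% of all genes had one. Groups did not overlap for 4 of 9 (Igf1r, Igfbp4, Igfbp5 and Igfbp7), where 14.3% of all genes did not. The median log2 difference of the 9 was 0.13, against -0.01 over all genes tested. In ORX+DHT against ORX groups did not overlap for 2 of 9 (Igfbp5 and Igf1r), against 19.5% of all genes, and the median was 0.0015 against 0.0062. Its sign turned with the scaling and with edgeR or DESeq2. In ORX+DHT against control 0 members were called by limma, edgeR or DESeq2, against 0.0349% of 8595 genes by limma, with 0 at an unadjusted p under 0.05 (6.48% of all genes) and 2 without overlap (Igf1r and Igfbp7, 14% of all genes). The comparisons share libraries, so their values are not independent of each other.

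**Figure D4:**
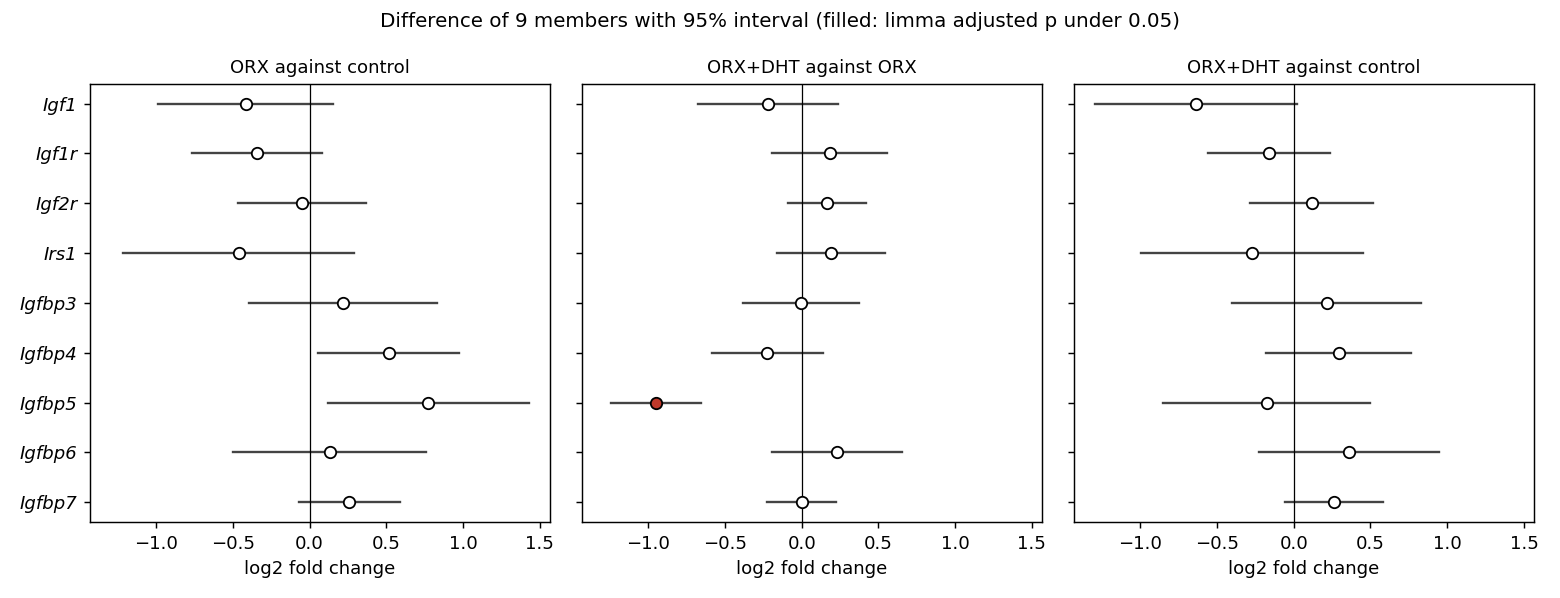
Log2 fold change (x axis) of the 9 tested members (rows) in the 3 comparisons (panels); lines are 95% intervals from limma and a filled point has an adjusted p under 0.05. Igfbp5 in ORX+DHT against ORX, at -0.95, is the one filled point.

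The wider pathway was read from 4 lists of 63 genes, of which 46 could be tested. In ORX+DHT against ORX 5 were called, 2 higher and 3 lower (of all genes, 4.08% were called, 2.38% higher and 1.7% lower), and 12 had an unadjusted p under 0.05 (14.3% of all genes). The median log2 difference was -0.05, against 0.0062 over all genes. Against control, ORX and ORX+DHT gave 0 calls each by limma, edgeR or DESeq2 (0.0579% and 0.0349% of all genes by limma). An unadjusted p under 0.05 by limma was found for 3 and 4 list genes, where 7.21% and 6.48% of all genes had one.

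Of 37 genes of insulin and IGF receptor signalling tested, Grb10 fell and Eif4ebp1 and Slc2a4 rose in ORX+DHT against ORX. Grb10 (ENSMUSG00000020176, chromosome 11), an imprinted gene for an adaptor that binds the IGF1 and insulin receptors and restrains their signal, stood at 121, 107 and 85.2 in ORX and at 50.7, 60.9 and 58.3 in ORX+DHT libraries. Its groups did not overlap, and controls 1, 2 and 3 lay at 44.9, 91.8 and 74.5. The log2 difference was -0.86 (SE 0.15, adjusted p by limma 0.00183), and the call was kept in each of the 6 fits without 1 library. Eif4ebp1 (ENSMUSG00000031490, chromosome 8), a repressor of translation that mTOR inactivates, stood at 30.4, 40.9 and 55.4 in ORX and at 82.1, 65.7 and 79.0 in ORX+DHT libraries, with 45.7 to 50.9 in control. The 2 groups did not overlap, and the log2 difference was 0.86 (SE 0.19, adjusted p by limma 0.0129). Slc2a4 (ENSMUSG00000018566, chromosome 11), for the insulin-responsive glucose transporter GLUT4, stood at 840, 940 and 884 in ORX and at 1169, 1056 and 1129 in ORX+DHT libraries, with 944 to 1070 in control. It was higher in every ORX+DHT library than in any ORX library, by 0.33 on the log2 scale (SE 0.08, adjusted p by limma 0.0204).

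The insulin receptor, another receptor substrate, AKT1 and the transcription factor FOXO1 carry the signal onward, and their genes were not called there. Insr, for the insulin receptor, stood at 121 ± 13.1 in ORX and 131 ± 10.3 in ORX+DHT muscle, Akt1 at 152 ± 10.9 and 131 ± 13.4, and Foxo1 at 48.3 ± 13.3 and 49.5 ± 8.13 (SD, n = 3). On the log2 scale ORX+DHT differed from ORX by 0.12, -0.21 and 0.05, with an adjusted p by limma of 0.735, 0.443 and 0.941. Irs2, the other main receptor substrate of muscle, stood at 43.3 ± 4.31 in ORX and at 71.0 ± 44.0 in ORX+DHT muscle, where replicate 2 reached 121 against 54.7 and 37.5 in replicates 1 and 3 (adjusted p by limma 0.420).

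Growth hormone signals through its receptor, JAK2 and STAT5 and is a main inducer of Igf1. All 6 genes of this list that were tested had a negative log2 difference in ORX+DHT against ORX by limma. The median was -0.48, against 0.0062 over all genes, and 1 was called, where 4.08% of all genes were. By edgeR and by DESeq2 the median was -0.36, with 1 and 0 called. Ghr (ENSMUSG00000055737, chromosome 15), the receptor, stood at 255, 270 and 292 in ORX and at 187, 205 and 209 in ORX+DHT libraries, with 226, 287 and 266 in control. It fell by 0.44 on the log2 scale (SE 0.10, adjusted p by limma 0.0129), with no overlap. Stat5b, Jak2, Stat5a and Socs2, a feedback inhibitor, differed by -0.26, -0.24, -0.53 and -0.65 on the log2 scale, short of the threshold (adjusted p by limma 0.122, 0.340, 0.301 and 0.260). Cish, another feedback inhibitor, varied from 4.1 to 57.3 within ORX+DHT libraries. Of the imprinted growth genes 2 could be tested, and Peg3 (ENSMUSG00000002265, chromosome 7), for a zinc-finger protein, was called. It stood at 124, 87.0 and 112 in ORX and at 56.7, 83.1 and 52.4 in ORX+DHT libraries, with 83.4 to 97.4 in control, a log2 difference of -0.75 (SE 0.17, adjusted p by limma 0.0167). Htra1, a protease that cuts binding proteins, was the 1 gene of the IGF availability list tested and did not pass (log2 difference -0.16, adjusted p by limma 0.782).

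**Figure D5:**
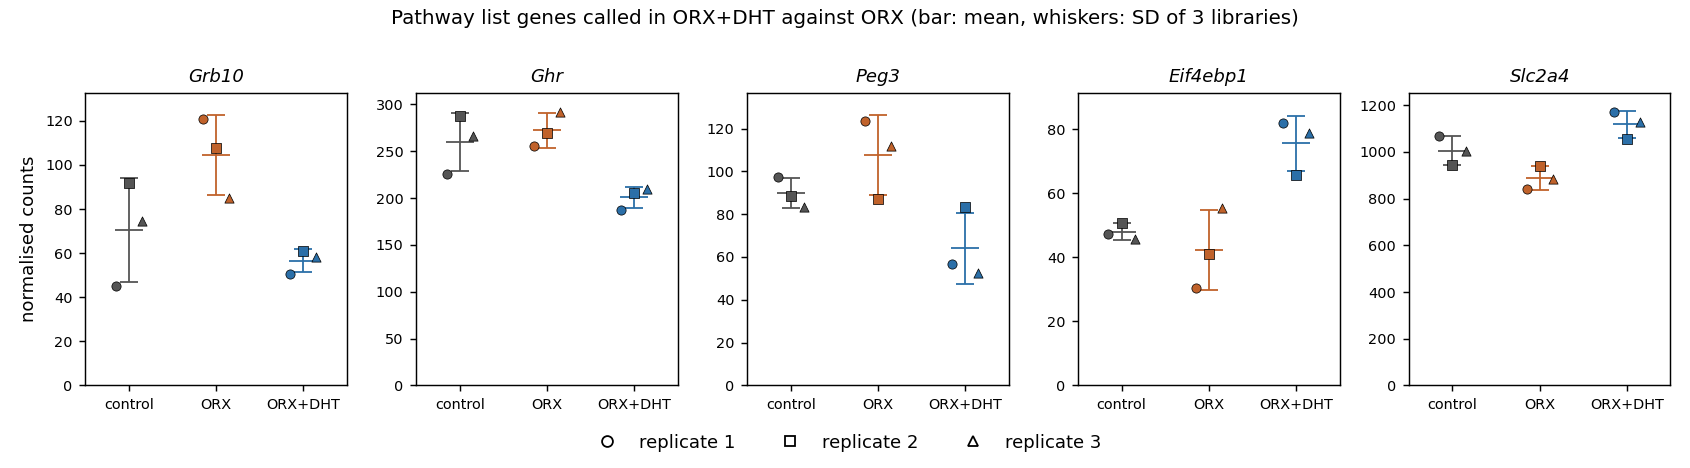
Normalised counts (y axis, linear from 0) of the 5 pathway list genes called in ORX+DHT against ORX, by library and group; bars are means and whiskers the SD of 3 libraries. ORX and ORX+DHT libraries do not overlap in any panel.

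The 5 calls depended on the fit, and those other than Grb10 also on single libraries. All 5 were lost with all 9 libraries in 1 fit (adjusted p by limma 0.0568 for Eif4ebp1 to 0.261 for Slc2a4) and made again with 8 libraries and control 1 left out. Without ORX+DHT replicate 1 just Grb10 was called (adjusted p by limma 0.0164), and without ORX replicate 1 Grb10 and Ghr were. Ghr was lost without ORX replicate 2 or 3 (adjusted p by limma 0.0529 and 0.0519), and Peg3 and Slc2a4 without ORX+DHT replicate 3 (0.0745 and 0.0744). DESeq2 called Grb10, Eif4ebp1 and Peg3. Stat5b was called too after quantile normalisation, and Socs2 without ORX+DHT replicate 3.

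By profile over the 9 libraries, Grb10 was also the gene nearest to Igfbp5 of 8769 genes compared. The root mean square difference of their centred log2 values was 0.22, against a median of 0.64 over all genes. Avil came next, with 0.26. It was low, at 5.0 to 30.7 normalised counts, and was not called in ORX+DHT against ORX (adjusted p by limma 0.351). Igfbp5, Grb10 and Avil share the low value of control 1.

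Some markers of connective tissue fell in the same comparison as Igfbp5. Of all 8770 genes tested there by limma, 4.08% were called, 2.38% higher and 1.7% lower, and 14.3% had an unadjusted p under 0.05. Of 8 fibroblast markers tested in ORX+DHT against ORX, 3 were called, all lower: the collagen genes Col1a1 (2.26-fold, adjusted p by limma 2.89e-06) and Col1a2 (2.01-fold, 7.02e-06) and the proteoglycan gene Lum (3.46-fold, 4.81e-06). The summed level of the list was 4428 to 5803 in ORX libraries and 2492 to 3429 in ORX+DHT libraries, with 2020 to 4018 in control. No marker was at 0. Most of that sum came from Col1a1, Col1a2 and Col3a1 (ORX means 1682, 1594 and 1222), so it mainly restates the collagen genes. The defining surface marker Pdgfra and the proteoglycan Dcn had log2 differences of 0.06 and -0.05. Of 3 tenocyte markers 1 was called, Fmod, at -1.28 (adjusted p by limma 0.00205). Their list summed to 446 to 733 in ORX libraries and 308 to 377 in ORX+DHT libraries, with 329 to 430 in control. Fmod itself had means of 263 in ORX and 102 in ORX+DHT muscle. Of 8 fast-fibre markers Acta1, Myh1 and Tnni2 were called higher. Of the 8, 6 had a positive log2 difference and 2 a negative one, Myh4 (-0.08) and Actn3 (-0.16), neither called. The median of the list was 0.17, and 0.014 after quantile normalisation. The list summed to 223235 to 234552 in ORX libraries and 243864 to 266249 in ORX+DHT libraries. Over all 9 marker lists limma called 7 of 39 markers tested. The lists of endothelium, smooth muscle and pericytes, macrophages, satellite cells, adipocytes and Schwann cells had no limma call. They were pooled for that reason, so 0 calls by limma among their 20 tested markers restates the choice. Of these 20, edgeR and DESeq2 called 0 as well, and 5 had an unadjusted p under 0.05 by limma. Summed levels of the smooth muscle and pericyte list were 1193 to 1262 in ORX libraries and 1401 to 1422 in ORX+DHT libraries, and those of the Schwann cell list 138 to 159 and 96.3 to 130, each without overlap. Markers at 0 in some library were Myf5, Calcr and Chrdl2 (satellite cells), Adipoq, Plin1, Cidec, Lep and Retn (adipocytes) and Sox10 (Schwann cells). The part of these markers in the fall of Igfbp5, Grb10, Ghr and Peg3 was not tested.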

How the data were processed

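Gene expression was measured by polyA-selected, strand-keeping RNA sequencing in 9 libraries. The submitters' processing notes name Trim Galore 0.6.7, HISAT2 2.2.1, featureCounts 2.0.1, DESeq2 1.36.0 and the build GRCm38. Protein-coding genes alone are listed. The authors deposited normalised counts (a signal: reads divided by 1 factor per library) in 2 tables scaled separately, control with ORX (14596 genes) and ORX with ORX+DHT (14675). In all 12 columns 100% of values were whole multiples of 1 step (relative tolerance 1e-06), so reads were recovered; for control 3 the step was close to 1. ORX reads were identical in both tables. No column was left unmapped (0).

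The comparisons ORX with control and ORX+DHT with ORX were fitted each inside its table, and ORX+DHT against control after joint median-of-ratios scaling of 14300 shared genes. Printed levels use the joint scale. limma 3.58.1 in R 4.3.3 (eBayes with trend) took log2(value + 1) of genes whose mean over the compared libraries was at least 10, with Benjamini-Hochberg adjustment over all genes tested and genes called where the adjusted p was under 0.05. The log2 scale with this pseudocount understates low genes. Alternatives were robust eBayes, TMM or quantile scaling, a filter at 50 or none, pseudocounts of 0.1 and 10, 9 or 8 libraries in 1 fit, the replicate block, each library left out, edgeR 4.0.16 and DESeq2 1.42.0. The code was tested on simulated data.

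Named were the 10 members, called genes of 4 pathway lists, Ghr, Insr, Irs2, Socs2, Foxo1 and Akt1 in any case, and the 3 genes nearest in profile to a called member, of which 1 is not reported here. Igfbp1, Igfbp2, Igfbpl1, Insrr and Irs4 were not analysed here. The members, lists and markers (9 lists) were chosen with earlier results of these data known.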

Additional observations from a re-analysis of the deposited data

How the results depend on the processing

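Of 473 values of single members under other settings, 447 kept their direction and their side of the threshold. Members called in ORX+DHT against ORX numbered 1, but 0 under robust eBayes and 0 with all 9 libraries in 1 fit; pathway list genes called there numbered 5, but 0 with all 9 libraries in 1 fit, 3 with DESeq2, 6 after quantile normalisation (with Stat5b), and 1 to 5 when single libraries were left out (lowest without ORX+DHT replicate 1; Socs2 among 4 without ORX+DHT replicate 3). Members called in ORX against control numbered 0 to 1 with 1 library left out and 1 with 8 libraries in 1 fit (Irs1 without control 1 in both), and in ORX+DHT against control 0 to 2 (Igfbp5 and Irs1 without control 1). The cause of these changes was not tested. The sign of Igfbp7 in ORX+DHT against ORX turned under TMM scaling (-0.0055), quantile normalisation (-0.0077), edgeR (-0.011) and DESeq2 (-0.0087), and that of Igf2r in ORX+DHT against control with 8 libraries (-0.073). With single libraries left out, log2 differences that crossed 0 ran from -0.24 to 0.049 (Igf2r) and -0.074 to 0.42 (Igfbp6) in ORX against control, from -0.041 to 0.033 (Igfbp3) and -0.032 to 0.038 (Igfbp7) between ORX+DHT and ORX, and from -0.073 to 0.22 (Igf2r), -0.61 to 0.062 (Igfbp5) and -0.74 to 0.06 (Irs1) in ORX+DHT against control. Over all genes, 5 calls in ORX against control became 16 with no filter, 23 with 9 libraries in 1 fit, 71 with 8, 28 with DESeq2 and 1 to 51 with 1 library left out (highest without control 1); 3 in ORX+DHT against control became 21, 11, 42, 13 and 0 to 66, and 6 after quantile normalisation; 358 in ORX+DHT against ORX became 123 with 9 libraries, 224 with DESeq2 and 223 without ORX+DHT replicate 1. Depth limits Igf1 and Igf1r, at 25 to 61 and 37 to 43 reads a library. It also limits Igfbp3 (19 to 47 reads), Igfbp6 (25 to 63) and Igfbp4 (31 to 88).

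The replicate block changed no call of a member or list gene: members called were 0, 1 and 0 and list genes 0, 5 and 0 in the 3 comparisons. It gave Igfbp5 an adjusted p of 6.52e-11 by limma in ORX+DHT against ORX and raised all calls there from 358 to 571. The block leaves little from which to estimate a gene's own spread. That p therefore leans on the spread limma takes from genes at a similar level. What same-numbered libraries share beyond the number is not given in the labels. Their deviations correlated by -0.165 to 0.060 in ORX against control and by -0.092 to -0.00063 in ORX+DHT against control. In ORX+DHT against ORX this was 0.061 to 0.151, and each library correlated best with its own number.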
